A study of Homo sapiens with 96 samples.

Results

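The nucleolar ribosome biogenesis genes are a set of 40 protein-coding genes, chosen by symbol, whose products make ribosomal RNA and assemble it with proteins into the ribosomal subunits. All 40 were found as 1 row each among the 60675 genes of the deposited table, and all 40 passed the filter on low counts in both batches. They are 3 core proteins of box C/D small nucleolar ribonucleoproteins (snoRNPs), 4 proteins of box H/ACA snoRNPs, 3 abundant nucleolar proteins, 4 factors of RNA polymerase I, 12 assembly factors of the small subunit and 14 of the large subunit.

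Ribosomes are built in the nucleolus, where RNA polymerase I transcribes a long precursor of the ribosomal RNAs. Box C/D and box H/ACA snoRNPs guide 2′-O-methylation and pseudouridylation of this precursor, while assembly factors fold and cleave it and leave the particle before it reaches the cytoplasm. The demand for ribosomes follows growth, and many genes of this machinery are known targets of the transcription factor MYC, which binds the E-box CACGTG. Tumour cells often have large nucleoli.

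Transcripts were counted in 96 libraries from A549, a cell line of human lung adenocarcinoma, after exposure to extracts or single ingredients of Paeoniae Radix, the peony root of traditional medicine. The first batch held cells given an ethanol extract at 500, 100 or 20 µg/mL, cells given a water extract at the same doses, and cells given vehicle. The second batch held cells given albiflorin, benzoic acid, catechin, gallic acid, hederagenin, oleanolic acid, paeoniflorin or paeonol at 10, 2 or 0.4 µM, and cells given vehicle. Each of the 32 groups had 3 libraries, and every group of a batch was compared with the vehicle of that batch, so comparisons within a batch share their vehicle libraries. Library codes in the labels begin with 1 in every vehicle library, with 3 in the extract libraries and with 6 to 9 in the ingredient libraries. What this digit stands for is not said, and in every comparison with vehicle it cannot be told apart from treatment. The labels give neither the exposure time nor the kind of vehicle. They do not say whether replicates were separate cultures, so the p-values rest on how these libraries vary, and that variation may be technical. Because the measurement is relative and made on bulk RNA, fewer cells with a transcript and less of it per cell cannot be told apart.

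Totals were 17.9 to 28.1 M counts per library in the first batch, and libraries of the second batch held 15.7 to 35.6 M. In the first batch KRT8 ranged from 1341 to 2349.6 CPM (counts scaled to 1 M per library) and KRT18 from 1233 to 2049 CPM, while EPCAM stayed at 0.785 to 5.198 CPM and CDH1 ranged from 24.2 to 41.9 CPM. Of the markers of other cell types, CD3E and KDR were at 0 in every library and the 4 endothelial markers summed to at most 0.647 CPM. The 8 fibroblast markers summed to 56.6 to 74.2 CPM in treated and 74.98 to 81.7 CPM in vehicle libraries, led by COL1A1 at 40.2 to 62.9 CPM, and the 6 leukocyte markers to 10.9 to 27.04 CPM in treated and 11.9 to 16.5 CPM in vehicle libraries, led by CD68 at 7.94 to 21.5 CPM. The 7 markers listed for A549 epithelium were KRT8, KRT18, EPCAM, CDH1 and the enzymes ALDH1A1, AKR1B10 and AKR1C1. In the first batch the enzymes ranged from 2561 to 6044 CPM (ALDH1A1), 1455 to 2179 CPM (AKR1B10) and 211 to 312 CPM (AKR1C1). These 7 epithelial markers summed to 6936 to 6965 CPM with ethanol extract at 500 µg/mL, to 11211 to 12419 CPM with the other extract groups and to 11585 to 12381 CPM with vehicle. ALDH1A1 had the largest median of the 7, so the sum does not stand for epithelial identity alone. This sum moved with the main result below, and its part in it was not tested. Counts on mitochondrially encoded genes made up 14.2 to 18.6% of a treated library and 16.9 to 22.1% of a vehicle library in the first batch. In the second batch they made up 0.822 to 18.9% of a treated library, with 16 of 72 under 5%, and 14.5 to 14.9% of a vehicle library. COL1A2 passed 100 CPM in replicate 1 of gallic acid at 2 and 0.4 µM and replicate 2 of catechin at 10 and 2 µM. It is a collagen gene on the fibroblast list, and no other library had more than 0.843 CPM of it. On that list COL1A1, COL3A1 and LUM reached 544, 66.9 and 12.01 CPM in the second batch. DCN, POSTN and PDGFRB reached only 0.941, 0.13 and 0.481 CPM there, and THY1 stayed at 5.63 to 10.4 CPM. Whether these libraries held fibroblast material was not tested.

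RefSeq (GRCh38.p14) gave promoters, from 250 bases before a start site to 50 after it, for 34 of the 40 members, as 42 windows. The E-box CACGTG, which reads the same on both strands, stood in 14 of the 42 windows (33.3%, in 14 genes), against 8.34% of 22199 windows of protein-coding genes. It reached into the first 50 transcribed bases in 12 member windows (28.6%), against 1.13% of all windows. Lying wholly upstream of the start, it was found in 2 member windows (4.76%), against 7.37% of all. The motif CCGGAAG, searched on both strands, was found in 17 member windows (40.5%), against 12.8% of all. Shown here are 30 bases around the E-box, in capitals, 5′ to 3′ on the strand of the gene. They come from the 4 E-box genes with the largest declines with ethanol extract at 500 µg/mL and from the 2 members not called in that comparison, so that E-box genes with the largest and the smallest changes can be read side by side. Apart from GAR1, these genes were chosen after their values were seen.
UTP20 (chr12:101280083-101280112, plus strand): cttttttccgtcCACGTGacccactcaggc
RRP9 (chr3:51941892-51941921, minus strand): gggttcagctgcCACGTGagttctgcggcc
GAR1 (chr4:109815781-109815810, plus strand): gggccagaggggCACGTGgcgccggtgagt
NOP2 (chr12:6568242-6568271, minus strand): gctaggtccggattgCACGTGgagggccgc
NOC3L (chr10:94362903-94362932, minus strand): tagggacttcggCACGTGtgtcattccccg
FBL (chr19:39846356-39846385, minus strand): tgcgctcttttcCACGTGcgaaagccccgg
The members with the E-box lay between -1.12 and 0.03, and those with a promoter but without it between -1.32 and -0.16. The median log2 change with ethanol extract at 500 µg/mL was -0.71 over the 14 members with the E-box and -0.74 over the 20 with a promoter but without it. For CCGGAAG the medians were -0.66 over 15 members with it and -0.76 over 19 without. A match is a description of the letters and not a binding site.

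With ethanol extract at 500 µg/mL, 38 of the 40 members fell against vehicle and 0 rose. Across all 16854 genes tested in that comparison, 34.4% were called lower and 34.7% higher. The members' median log2 change was -0.75, against 0.0010 over all genes, and single members lay between -1.49 (BOP1) and 0.03 (FBL). In all 38, the 3 treated libraries lay below the 3 vehicle libraries, as they did for 35.4% of all genes, and 10 members fell at least 2-fold (7.48% of all genes). Members took up 0.422 to 0.429% of all counts in libraries with the extract and 0.591 to 0.706% in vehicle libraries. All changes are from edgeR's quasi-likelihood test, given on the log2 scale ± standard error (SE), with p adjusted by Benjamini-Hochberg over all genes of the comparison.

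**Figure D1:**
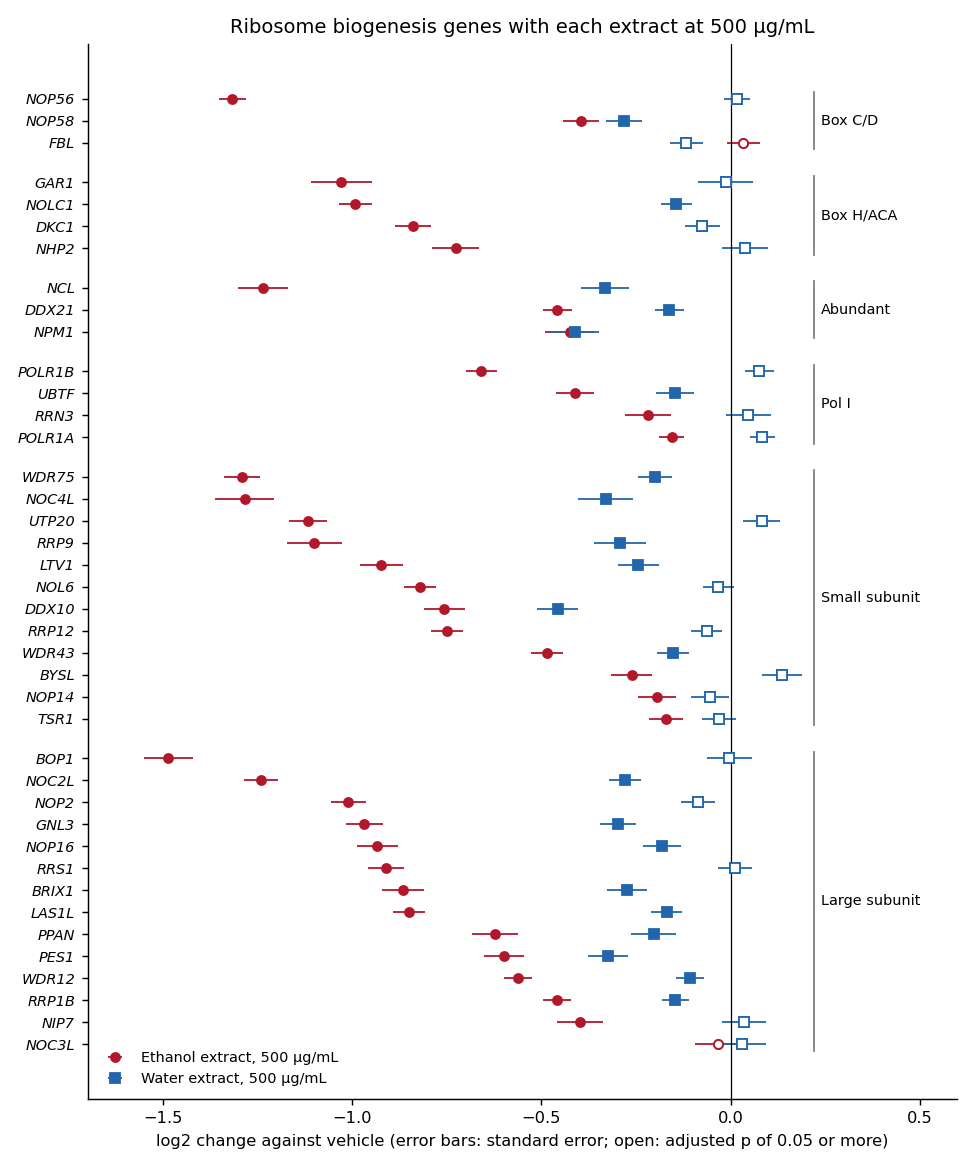
The log2 change of each member against vehicle is plotted on the horizontal axis for ethanol extract (circles) and water extract (squares) at 500 µg/mL, with bars of 1 SE, members grouped by role and open symbols for an adjusted p of 0.05 or more. With ethanol extract, 38 of 40 members are filled and left of 0, down to -1.49 for BOP1, while with water extract 21 are filled and none lies below -0.46.

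Box C/D snoRNPs carry the methyltransferase fibrillarin (FBL) and the paired scaffold proteins NOP56 and NOP58. NOP56 (chr20:2652145-2658393, plus strand) had 91.9, 96.2 and 93.6 CPM with ethanol extract at 500 µg/mL, against 237, 239.7 and 226 CPM with vehicle. The groups lay far apart, with NOP56 at 0.401 times the vehicle level (log2 change -1.32 ± 0.04 SE, adjusted p = 5.15e-19). FBL had 304, 308 and 308 CPM with the extract, against 288, 322 and 288 CPM with vehicle. These groups overlapped, with a log2 change of 0.03 (95% interval -0.06 to 0.12, adjusted p = 0.497). NOP58 stood between them at -0.40 ± 0.05 SE (adjusted p = 1.04e-07). The transcript changes for these 3 proteins of 1 particle thus lay between -1.32 and 0.03.

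All 4 box H/ACA members fell with ethanol extract at 500 µg/mL. DKC1, the pseudouridine synthase dyskerin, changed by -0.84 ± 0.05 SE and its partner NHP2 by -0.73 ± 0.06 SE. GAR1 (chr4:109815510-109824740, plus strand), another core protein, had 8.31, 7.99 and 9.40 CPM with the extract, against 16.95, 18.2 and 17.5 CPM with vehicle. All 3 treated libraries were far under the vehicle libraries (-1.03 ± 0.08 SE, adjusted p = 6.37e-11). NOLC1, a chaperone of snoRNPs, changed by -0.99 ± 0.04 SE.

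Among the abundant nucleolar proteins, NCL (chr2:231453531-231483641, minus strand), which codes for nucleolin, had 561, 573 and 603 CPM with ethanol extract at 500 µg/mL, against 1221, 1520.2 and 1354 CPM with vehicle (-1.24 ± 0.07 SE, adjusted p = 5.64e-14). NPM1, the histone chaperone nucleophosmin, had 1161, 1160.4 and 1186 CPM with the extract, against 1414, 1831 and 1466 CPM with vehicle. Its decline was smaller, at -0.43 ± 0.06 SE (adjusted p = 3.68e-06). NPM1 pseudogenes carry near-identical sequence, and NPM1P27 was listed with 1.05% as many counts as NPM1, so how reads were split between them is uncertain. The RNA helicase DDX21 changed by -0.46 ± 0.04 SE (adjusted p = 2e-10).

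The 4 polymerase I members fell less, with a median of -0.31. POLR1B (chr2:112541915-112577150, plus strand), the second largest subunit, had 27.8, 27.7 and 27.5 CPM with ethanol extract at 500 µg/mL, against 44.6, 43.7 and 42.8 CPM with vehicle (-0.66 ± 0.04 SE, adjusted p = 9.17e-13). POLR1A, the largest subunit, had 169, 165 and 171 CPM with the extract, against 182, 189 and 191 CPM with vehicle (-0.16 ± 0.03 SE, adjusted p = 0.000172). Neither pair of groups overlapped, though the distance was small for POLR1A. UBTF, which binds the ribosomal DNA promoter, changed by -0.41 ± 0.05 SE. RRN3, the initiation factor that joins the polymerase to that promoter, changed by -0.22 ± 0.06 SE (adjusted p = 0.0027), a value made uncertain by pseudogenes, since RRN3P3 and RRN3P1 were listed with 7.83% and 4.61% as many counts.

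All 12 small subunit factors fell with ethanol extract at 500 µg/mL, with a median of -0.79. WDR75 (chr2:189441433-189475565, plus strand), a subunit of the complex that first binds the nascent precursor, had 28.5, 28.4 and 28.7 CPM with the extract, against 66.4, 71.8 and 71.6 CPM with vehicle. It was at 0.409 times the vehicle level in libraries that differed little from each other (-1.29 ± 0.05 SE, adjusted p = 7.78e-17). NOC4L (-1.29 ± 0.08 SE), UTP20 (-1.12 ± 0.05 SE) and RRP9, a U3 snoRNP protein (-1.10 ± 0.07 SE), fell more than 2-fold as well. LTV1, a factor of late small subunit maturation, changed by -0.92 ± 0.06 SE, and the helicase DDX10 by -0.76 ± 0.05 SE. The smallest declines were those of TSR1 (-0.17 ± 0.05 SE, adjusted p = 0.00211), NOP14 (-0.19 ± 0.05 SE) and BYSL (-0.26 ± 0.05 SE, adjusted p = 0.000159), all assembly factors of the same particle. The NOP14 value is uncertain, because the antisense gene NOP14-AS1 was listed with 10.1% as many counts and use of strand in the counting is not given in these sources. WDR43 (-0.49), RRP12 (-0.75) and NOL6 (-0.82) lay in between.

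Of the 14 large subunit factors, 13 fell, with a median of -0.86 over all 14. BOP1, PES1 and WDR12 code for the 3 proteins of the PeBoW complex, which acts in maturation of the large subunit RNAs. BOP1 had 35.2, 37.1 and 39.2 CPM with ethanol extract at 500 µg/mL, against 105, 111 and 96.8 CPM with vehicle (-1.49 ± 0.07 SE, adjusted p = 1.94e-15). The libraries with extract were all under 40 CPM and those with vehicle all above 96 CPM. The transcripts of the other 2 proteins of that complex changed less, PES1 by -0.60 ± 0.05 SE and WDR12 by -0.56 ± 0.04 SE. A similar contrast was seen between NOC2L and NOC3L, whose yeast counterparts bind each other. NOC2L changed by -1.24 ± 0.04 SE (adjusted p = 5.89e-17), whereas NOC3L had 38.01, 37.1 and 35.3 CPM with the extract, against 40.7, 38.6 and 33.4 CPM with vehicle. The NOC3L groups overlapped (-0.03, 95% interval -0.16 to 0.10, adjusted p = 0.653). NOP2, a methyltransferase of the large subunit RNA, changed by -1.01 ± 0.05 SE, and GNL3, a nucleolar GTPase named nucleostemin, by -0.97 ± 0.05 SE. The other 7 of the 14 were NOP16 (-0.93), RRS1 (-0.91), BRIX1 (-0.87), LAS1L (-0.85), PPAN (-0.62), RRP1B (-0.46) and NIP7 (-0.40), all called lower. The PPAN value is uncertain, because a readthrough gene that shares its sequence was listed with 0.769% as many counts.

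**Figure D2:**
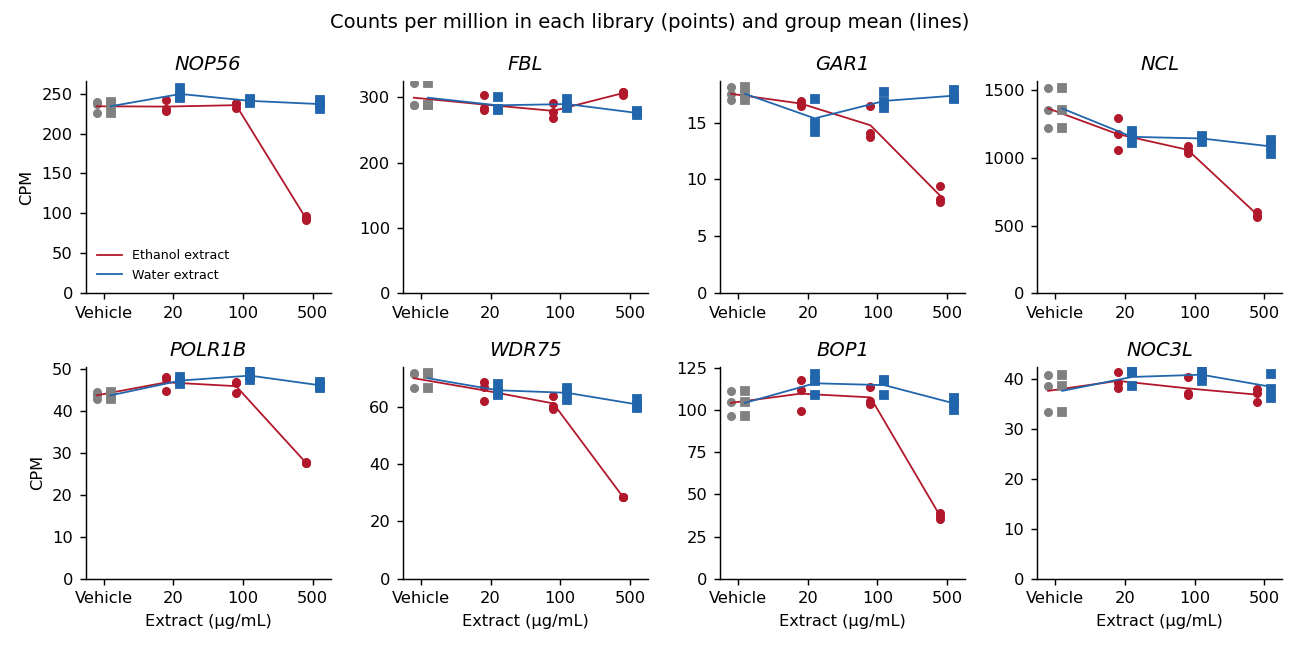
The level in CPM (vertical axis, from 0) of 8 members are shown for vehicle and for 20, 100 and 500 µg/mL of ethanol extract (circles) or water extract (squares), with 1 point per library and lines through the group means. NOP56 stands at 91.9 to 96.2 CPM with 500 µg/mL of ethanol extract and above 225 CPM in every other group, while FBL and NOC3L overlap vehicle there.

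At the lower doses of ethanol extract the members changed far less against vehicle. At 100 µg/mL, 20 members were called lower and 2 higher, where 9.23% of all genes were called lower and 8.26% higher, and the members' median was -0.12. DDX10 (-0.36 ± 0.05 SE, adjusted p = 8.11e-05), NCL (-0.37 ± 0.06 SE, adjusted p = 0.000426) and NPM1 (-0.37 ± 0.06 SE, adjusted p = 0.000457) had the smallest p among those lower. BYSL (0.19 ± 0.05 SE, adjusted p = 0.0135) and POLR1A (0.10 ± 0.03 SE, adjusted p = 0.0345) were the members called higher. At 20 µg/mL, 8 members were called lower (3.82% of all genes) and 2 higher (3.63%), with a median of -0.05. The lower members with the smallest p were DDX10 (-0.26 ± 0.05 SE, adjusted p = 0.00357), NOP58 (-0.22, adjusted p = 0.00604) and NPM1 (-0.26, adjusted p = 0.0173), and POLR1A (0.21) and BYSL (0.22) were again the higher members. The count at 100 µg/mL was 14 without its replicate 1. The count at 20 µg/mL was 3 without its replicate 1, 6 and 5 without vehicle replicates 2 and 3, and 0 when only the 2 groups were fitted (13 at an unadjusted p under 0.05). No share of all genes stands beside counts without 1 library, here or for the other extract groups below. They show only how far a count rests on single libraries.

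NOP56 had 232, 238 and 236 CPM at 100 µg/mL and 231, 242 and 228 CPM at 20 µg/mL of ethanol extract, against 237, 239.7 and 226 CPM with vehicle, so its groups overlapped vehicle at both lower doses. BOP1 had 105, 113 and 104 CPM at 100 µg/mL and 118, 112 and 99.6 CPM at 20 µg/mL, against 105, 111 and 96.8 CPM with vehicle. These groups overlapped too. In direct tests of the doses, 37 members were lower at 500 than at 100 µg/mL (33.2% of all genes) and 1, FBL, was higher (32.7% of all genes; 0.13 ± 0.04 SE, adjusted p = 0.00935). Against 20 µg/mL, 37 were lower (33.5% of all genes) and 0 higher. The group mean was lowest at the top dose in 39 of 40 members and lower at every step from vehicle upward in 24. Neither count was made over all genes. The 3 doses share 1 set of vehicle libraries.

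DDX10 was below vehicle already at the lowest dose. It had 42.3, 47.4 and 51.1 CPM with ethanol extract at 20 µg/mL, 42.4, 45.3 and 43.9 CPM at 100 µg/mL and 32.9, 33.1 and 33.7 CPM at 500 µg/mL, against 55.2, 55.7 and 57.9 CPM with vehicle. No library with extract reached the vehicle range. BYSL had 28.1, 27.3 and 25.3 CPM at 20 µg/mL, 26.7, 26.1 and 26.2 CPM at 100 µg/mL and 19.7, 20.1 and 18.1 CPM at 500 µg/mL, against 22.2, 24.4 and 22.8 CPM with vehicle. Its libraries were all above vehicle at the 2 lower doses and all below at the highest, a pattern that POLR1A shared. At 20 µg/mL the direct difference of ethanol from water extract was 0.0064 for DDX10, -0.079 for BYSL and 0.074 for POLR1A (edgeR adjusted p of 0.982 or more). A shift shared by both extracts cannot be told apart from a difference of the vehicle libraries they share.

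With water extract at 500 µg/mL, 21 members were called lower (11.4% of all genes) and 0 higher (9.70%), with a median of -0.13. In 23 members the treated libraries all lay below the vehicle libraries, as in 16.4% of all genes. DDX10 had 40.2, 41.9 and 40.7 CPM with water extract, against 55.2, 55.7 and 57.9 CPM with vehicle (-0.46 ± 0.05 SE, adjusted p = 4.94e-06). NOC2L (-0.28 ± 0.04 SE, adjusted p = 8.14e-05) and NPM1 (-0.41 ± 0.06 SE, adjusted p = 0.000107) followed by p. Some members with large changes under ethanol extract overlapped vehicle here. NOP56 had 238, 231 and 242 CPM with water extract, against 237, 239.7 and 226 CPM with vehicle (0.02, 95% interval -0.06 to 0.09, adjusted p = 0.79), and BOP1 had 107, 104 and 100.2 CPM, against 105, 111 and 96.8 CPM (95% interval of the log2 change -0.13 to 0.12, adjusted p = 0.981).

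Water extract at 100 µg/mL gave 10 members lower (6.98% of all genes) and 4 higher (5.58%), with a median of -0.05. PES1 (-0.32, adjusted p = 0.000575), DDX10 (-0.29, adjusted p = 0.00133) and NOP58 (-0.24, adjusted p = 0.00189) were lower, while POLR1A (0.17, adjusted p = 0.00133), BYSL (0.23, adjusted p = 0.00548) and POLR1B (0.15, adjusted p = 0.016) were higher. At 20 µg/mL, 8 were lower (5.25% of all genes) and 2 higher (4.26%), with a median of -0.06. DDX10 (-0.27, adjusted p = 0.00323), LTV1 (-0.25, adjusted p = 0.00624) and PES1 (-0.24, adjusted p = 0.00676) were lower, and BYSL (0.30 ± 0.05 SE, adjusted p = 0.00114) and POLR1A (0.13, adjusted p = 0.0117) higher. Between 500 and 20 µg/mL of water extract, 2 members were lower at the higher dose (1.06% of all genes), NOC2L by a log2 change of -0.19 and NOP16 by -0.20. The counts were 9 at 100 µg/mL without its replicate 2, 5 at 20 µg/mL without its replicate 1, and 0 to 1 between the doses without any 1 library.

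The extracts were also compared directly. At 500 µg/mL, 37 members were lower with ethanol than with water extract (33.3% of all genes) and 1 was higher (32.7%), with a median of -0.68. NOP56 (-1.33 ± 0.04 SE, adjusted p = 4.59e-19), UTP20 (-1.20, adjusted p = 1.2e-15) and WDR75 (-1.09, adjusted p = 2.26e-15) had the smallest p, and FBL was higher with ethanol extract (0.15 ± 0.04 SE, adjusted p = 0.00409). NPM1 had 1161, 1160.4 and 1186 CPM with ethanol extract, against 1184, 1165 and 1191 CPM with water extract, and was not called (-0.01, 95% interval -0.15 to 0.12, adjusted p = 0.868). NOC3L was the other member not called (-0.06, 95% interval -0.19 to 0.07, adjusted p = 0.379). At 100 µg/mL 1 member was called, DKC1 (-0.19 ± 0.05 SE, adjusted p = 0.0318), where 0.848% of all genes were lower, and edgeR called 0 without any 1 of the 6 libraries (4 to 11 at an unadjusted p under 0.05). At 20 µg/mL edgeR called 0 members and DESeq2 called 0, where 0.00% of all genes passed in edgeR. At an unadjusted p under 0.05 there were 3 members, and 735 of all 16854 genes.

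Other genes around this machinery were read from lists. Of 94 other ribosome biogenesis genes, 72 fell and 10 rose with ethanol extract at 500 µg/mL (median -0.43), where 34.4% of all genes fell and 34.7% rose. HEATR1, a small subunit factor (-1.37 ± 0.04 SE, adjusted p = 1.26e-18), and RUVBL2, an ATPase of snoRNP assembly (-0.999 ± 0.04 SE, adjusted p = 3.04e-16), fell. NOB1, the nuclease that makes the final cut in small subunit RNA (0.63 ± 0.04 SE, adjusted p = 2.72e-13), and POLR1E, a polymerase I subunit (0.92 ± 0.05 SE, adjusted p = 4.33e-13), rose. With water extract at the same dose 27 fell and 7 rose of the 94 (median -0.09), where 11.4% of all genes fell and 9.70% rose. With ethanol extract at 100 µg/mL 26 fell and 6 rose (median -0.08), where 9.23% of all genes fell and 8.26% rose.

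Small nucleolar RNAs are cut from introns of host genes, and GENCODE v29 places snoRNA genes inside 8 of the 40 members (20.0%), against 1.66% of 16762 tested genes. These members are NOP56 with 5 snoRNA genes, GNL3 with 6, NOP58, DKC1, NCL, WDR43, TSR1 and PPAN, and all 8 fell with ethanol extract at 500 µg/mL. Of 17 noncoding host genes, 3 were lower (34.4% of all genes) and 10 higher (34.7%), with a median of 0.36. SNHG3 fell (-1.80 ± 0.06 SE, adjusted p = 2.42e-17), as did SNHG15 (-0.71, adjusted p = 1.17e-07), while SNHG16 (0.62 ± 0.03 SE, adjusted p = 1.07e-13) and SNHG7 (1.38 ± 0.08 SE, adjusted p = 1.99e-13) rose.

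The next lists are read in the same comparison, where 34.4% of all genes fell and 34.7% rose. Of 12 RNA polymerase II subunits, 9 fell and 0 rose (median -0.54), led by POLR2L (-1.24, adjusted p = 5.43e-15) and POLR2K (-1.002, adjusted p = 2.21e-13). Of 18 genes of RNA polymerase III and its factors, 10 fell and 2 rose (median -0.14), with GTF3C1 at -0.64 among those lower and POLR3D at 0.73 and POLR3E at 0.55 the ones higher. Transcripts of mitochondrial ribosome proteins fell in 28 of 35 cases and rose in 2 (median -0.43). MRPL20 at -0.94 and MRPL3 at -0.81 were lower, and MRPL10 at 0.48 and MRPL14 at 0.20 higher. The MYC transcript had a log2 change of 0.0033 ± 0.04 SE (adjusted p = 0.951). Of the 10 tested genes of MYC and its network, 6 rose and 1 fell (median 0.20), with the MYC antagonists MXI1 (1.66 ± 0.07 SE, adjusted p = 2.55e-15) and MXD1 (1.42 ± 0.11 SE, adjusted p = 2.92e-11) higher and MXD3 (-0.46 ± 0.08 SE, adjusted p = 2.7e-05) lower.

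**Figure D3:**
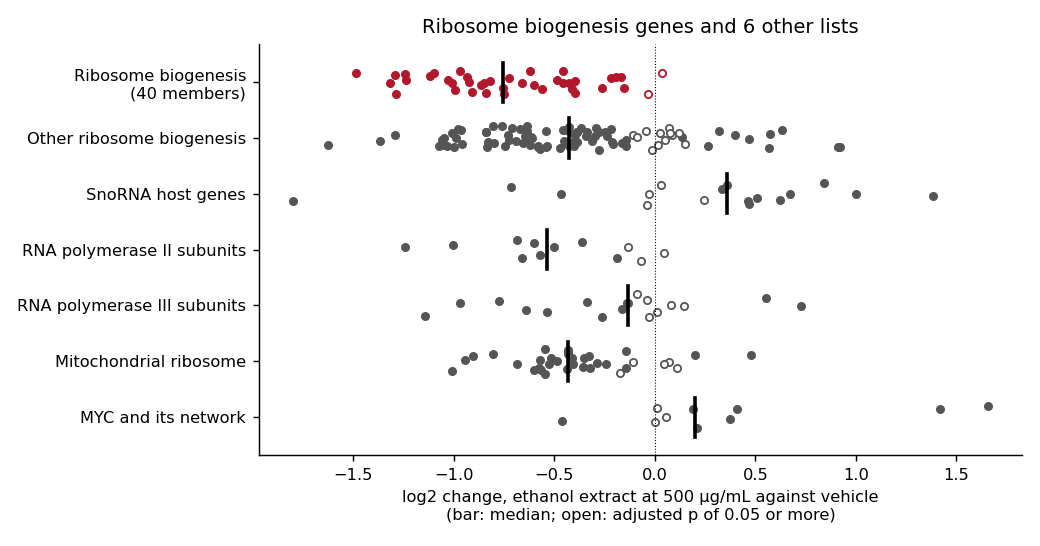
Each point is the log2 change of 1 gene against vehicle (horizontal axis) in cells given ethanol extract at 500 µg/mL, for the 40 members and 6 other lists, with a bar at the median and open points for an adjusted p of 0.05 or more. The members have the lowest median, -0.75, and snoRNA host genes and the MYC network have medians above 0, at 0.36 and 0.20.

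In the ingredient batch the members' median change against vehicle was above 0 in all 24 groups, from 0.05 to 0.43, and members passed the test in 6 of the 24. With gallic acid at 10 µM, 17 members were called higher (8.51% of all genes) and 1 lower (4.96%), with a median of 0.38. LTV1 had 75.1, 37.8 and 53.6 CPM with gallic acid, against 34.3, 35.1 and 37.3 CPM with vehicle (0.64 ± 0.15 SE, adjusted p = 0.00527). GNL3 had 164, 82.3 and 129 CPM with gallic acid, against 73.3, 79.6 and 75.8 CPM with vehicle (0.72 ± 0.17 SE, adjusted p = 0.00533). The 7 epithelial markers summed to 14770 to 22047 CPM in these libraries and to 15506 to 15578 CPM with vehicle, and their part in the result was not tested. In both genes the second gallic acid library lay close to vehicle and the other 2 far above it. NPM1 had 4082, 1332 and 2751 CPM with gallic acid, against 1175, 1268 and 1273 CPM with vehicle (1.14 ± 0.28 SE, adjusted p = 0.00671), with the same second library low. NOC3L, called lower, had 21.7, 27.6 and 25.04 CPM with gallic acid, against 35.3, 34.7 and 35.7 CPM with vehicle (-0.51 ± 0.16 SE, adjusted p = 0.0293). All its treated libraries were below vehicle.

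The 3 gallic acid libraries at 10 µM had 2.40%, 18.9% and 3.25% of their counts on mitochondrially encoded genes, and their member medians against the vehicle mean were 0.65, -0.0070 and 0.42. Mitochondrial share thus moved with the members' level. Without the libraries under 5%, 1 gallic acid library remained at this dose, and its members' median was -0.0043. No count is given for a lone library. With the log2 mitochondrial share as a covariate, an alternative added after the data were seen, 12 members were called (10.8% of all genes), and edgeR called 0 when only the 2 groups were fitted (15 at an unadjusted p under 0.05). Leaving out gallic acid replicate 1, 2 or 3 gave 0 (8 at an unadjusted p under 0.05), 29 and 10 members called, and leaving out vehicle replicate 1, 2 or 3 gave 3, 6 and 6. The share of all genes is not given for counts without 1 library, here or below. Such counts show only how far a result rests on single libraries.

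With catechin at 0.4 µM, 11 members were called higher (3.15% of all genes) and 0 lower, with a median of 0.43. LTV1 had 55.3, 68.1 and 58.4 CPM with catechin, against 34.3, 35.1 and 37.3 CPM with vehicle (0.77 ± 0.15 SE, adjusted p = 0.0034). GNL3 had 114, 147 and 139 CPM with catechin, against 73.3, 79.6 and 75.8 CPM with vehicle (0.81 ± 0.17 SE, adjusted p = 0.00586). In both genes the groups were apart, and DDX10 was higher as well (0.55 ± 0.13 SE, adjusted p = 0.0114). These catechin libraries had 2.81 to 8.09% mitochondrially encoded counts, under the 14.5 to 14.9% of vehicle, and their epithelial markers summed to 16723 to 19234 CPM, against 15506 to 15578 CPM. Without libraries under 5% mitochondrial counts, which left out catechin replicate 3 here, 25 members were called (30.4% of all genes), and 26 when only the 2 groups were fitted (37.96%). Leaving out catechin replicate 1, 2 or 3 gave 7, 0 (19 at an unadjusted p under 0.05) and 3 members called, and leaving out vehicle replicate 1, 2 or 3 gave 1, 3 and 3.

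Catechin at 2 µM gave 3 members higher (4.50% of all genes) and 2 lower (3.55%). FBL (0.90, adjusted p = 0.0418), LTV1 (0.47, adjusted p = 0.0473) and UBTF (0.85, adjusted p = 0.0493) were higher, and NOC3L (-0.55, adjusted p = 0.0397) and POLR1B (-0.53, adjusted p = 0.0453) lower. At 10 µM of catechin edgeR and DESeq2 called 0 members. There 5 members had an unadjusted p under 0.05 in edgeR, as did 2172 of 18324 genes. Hederagenin at 0.4 µM gave 5 members higher (2.19% of all genes), led by GNL3 (0.67 ± 0.17 SE, adjusted p = 0.025), LTV1 (0.56, adjusted p = 0.0336) and LAS1L, which acts in cutting the spacer between ribosomal RNAs (0.41, adjusted p = 0.0437). GNL3 had 114, 138 and 113 CPM in these libraries, against 73.3, 79.6 and 75.8 CPM with vehicle, and the groups did not overlap. The epithelial sum was 17698 to 20388 CPM with catechin at 2 µM and 15356 to 23268 CPM with hederagenin at 0.4 µM, against 15506 to 15578 CPM with vehicle. At 10 µM hederagenin gave 1 member higher (1.56% of all genes), DDX10 (0.46 ± 0.13 SE, adjusted p = 0.0373), and gallic acid at 2 µM gave 1 (0.327%), LTV1 (0.64, adjusted p = 0.0352). In the other 18 groups edgeR with all groups in 1 fit and DESeq2 called 0 members, but other settings did not always. When only the 2 groups were fitted, edgeR called 19 for hederagenin at 2 µM (14.7% of all genes), 14 for catechin (7.45%), 14 for oleanolic acid (23.3%) and 12 for albiflorin (9.05%) at 10 µM, and 10 for oleanolic acid at 0.4 µM (12.7%). Without libraries under 5% mitochondrial counts, it called 18 for gallic acid at 0.4 µM (13.8%). The counts for catechin at 2 µM, hederagenin at 0.4 µM, gallic acid at 2 µM and hederagenin at 10 µM were 0 without any 1 vehicle library, with 5 to 25 members at an unadjusted p under 0.05. Other settings raised them. Without libraries under 5% mitochondrial counts there were 32 for catechin at 2 µM (39.5% of all genes), 15 for gallic acid at 2 µM (5.63%) and 18 for hederagenin at 10 µM (12.5%). That setting left out replicate 1 of catechin and of gallic acid and replicate 3 of hederagenin at these doses. Hederagenin at 0.4 µM kept 1 library in that setting, so no count is given for it. DESeq2 gave 19 for catechin at 2 µM (19.2%), 16 for hederagenin at 0.4 µM (8.94%), 7 for gallic acid at 2 µM (3.54%) and 2 for hederagenin at 10 µM (3.72%). At an unadjusted p under 0.05 the 18 groups had from 0 members (all doses of albiflorin and benzoic acid) to 22 (paeonol at 0.4 µM). Of all 18324 genes, 449 to 786 had such a p at the doses of albiflorin and benzoic acid, and 3364 with paeonol at 0.4 µM. The share of all genes called in either direction was 4.45, 0.322 and 0.180% for oleanolic acid at 10, 2 and 0.4 µM, 0.191, 0.229 and 0.136% for paeoniflorin, 0.126, 0.0873 and 0.278% for paeonol, 0.0273, 0.0218 and 0.0327% for benzoic acid and 0.0382% at each dose of albiflorin. It was 0.0655% for catechin at 10 µM, 0.0709% for gallic acid at 0.4 µM and 0.0546% for hederagenin at 2 µM.

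**Figure D4:**
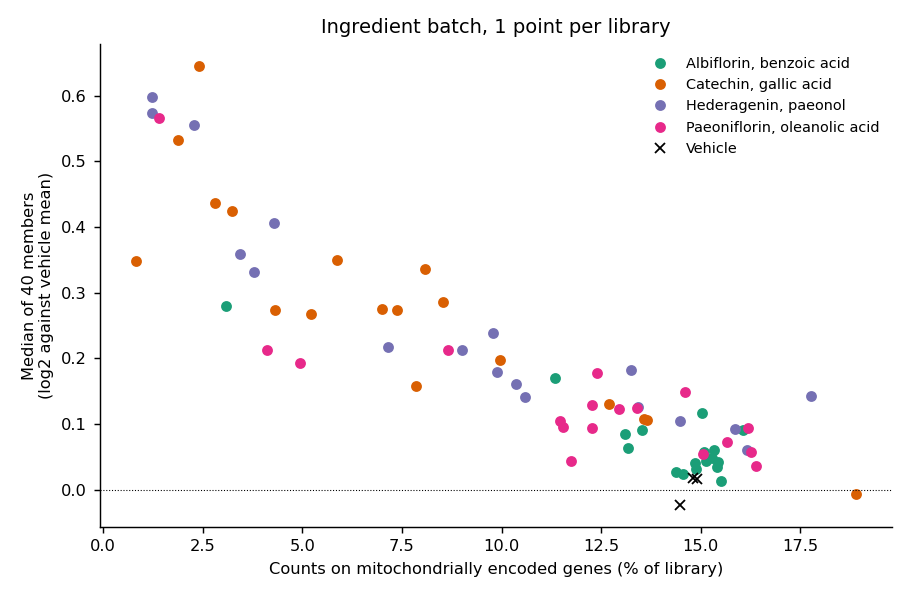
For each library of the ingredient batch, the median log2 level of the 40 members against the vehicle mean (vertical axis) is plotted against the percent of counts on mitochondrially encoded genes (horizontal axis), coloured by ingredient pair. The 16 ingredient libraries under 5% sit at medians of 0.19 to 0.65, and the 43 at 10% or more sit at -0.0070 to 0.18.

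Across the 72 ingredient libraries, the members' median against the vehicle mean fell as the mitochondrial share rose (Pearson's r = -0.898, Spearman's rho = -0.886, and r = -0.896 without the 2 libraries farthest from the median share). All points share the vehicle mean, and each point's 2 values come from the same library. The first digit of the library codes in the labels is the same for albiflorin and benzoic acid, for catechin and gallic acid, for hederagenin and paeonol, and for paeoniflorin and oleanolic acid, and the labels do not say what it stands for. Within these sets of 18 libraries r was -0.867 (catechin and gallic acid), -0.91 (hederagenin and paeonol) and -0.809 (paeoniflorin and oleanolic acid), and the relation held without the 2 farthest libraries (-0.809, -0.888 and -0.695). For albiflorin and benzoic acid r was -0.883 but -0.235 without those 2 libraries, so it rests on them. In the 18 extract libraries r was -0.291 (rho -0.15), and the 3 libraries with ethanol extract at 500 µg/mL, at 15.9 to 17.7% mitochondrial counts, had member medians of -0.76 to -0.74. These 6 relations are given as descriptions, and they were not computed for other genes.

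Members did not move alike in the 16 libraries with under 5% mitochondrial counts. The median over these libraries was above the vehicle mean for 32 members and below it for 8. NCL (median 1.12, range 0.53 to 1.78), NOP14 (1.08) and NPM1 (1.06, range 0.55 to 1.72) were highest, and 19 members were above the vehicle mean in all 16. NOC3L (-0.52) and POLR1B (-0.40) were below it in all 16, and NOLC1 (-0.34), WDR75 (-0.32) and POLR1A (-0.30) had medians below it. In the 43 libraries with 10% or more, the same medians lay between -0.26 (NOC3L) and 0.22 (NCL). These values were computed for the members only, so how many of all genes moved in this way is not given.

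**Figure D5:**
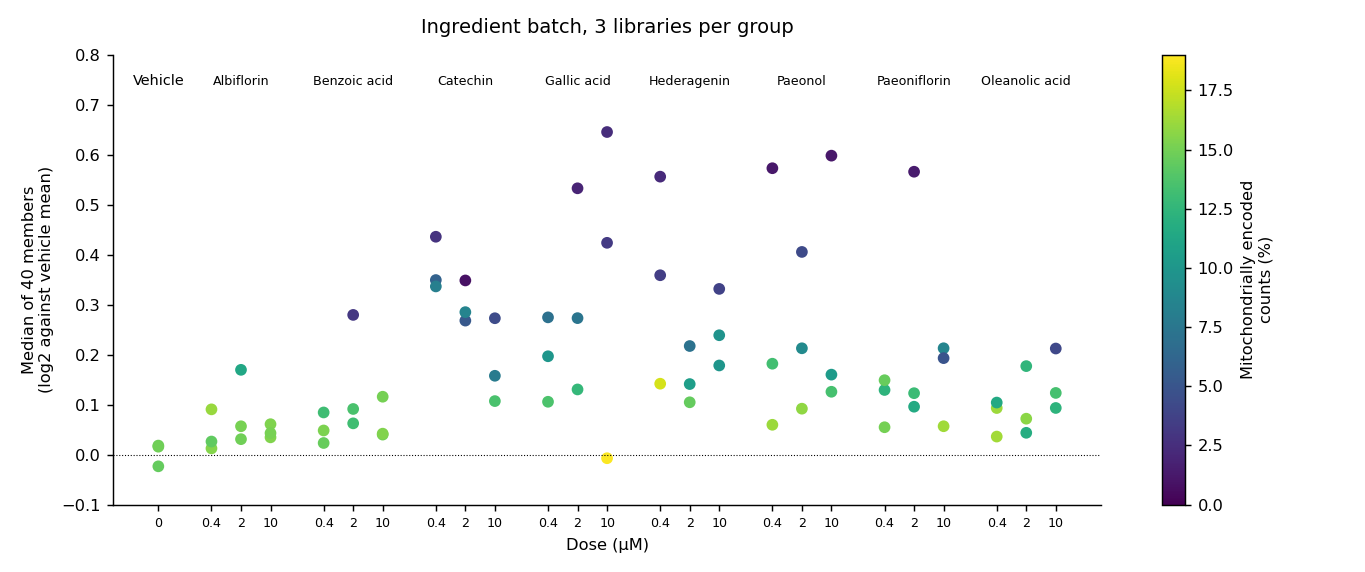
The median log2 level of the 40 members against the vehicle mean is shown for each library (points) of vehicle and of 8 ingredients at 0.4, 2 and 10 µM, coloured by the percent of mitochondrially encoded counts. The gallic acid libraries at 10 µM spread from -0.0070 to 0.65, while albiflorin and benzoic acid libraries mostly lie near vehicle.

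Related ingredients were compared at matched doses in 9 pairs. In every pair the library codes of the 2 ingredients begin with different digits, so that digit cannot be told apart from the ingredient. Gallic acid is benzoic acid with added hydroxyl groups, and at 10 µM 9 members were higher with gallic than with benzoic acid (5.75% of all genes), with a median of 0.31. NPM1 had 4082, 1332 and 2751 CPM with gallic acid, against 1658, 1299 and 1334 CPM with benzoic acid, and the groups overlapped through the second gallic acid library (0.93, 95% interval 0.37 to 1.48, adjusted p = 0.0319). GAR1 (0.65, 95% interval 0.26 to 1.04, adjusted p = 0.0319) and RRS1, a large subunit factor (0.56, 95% interval 0.22 to 0.89, adjusted p = 0.0325), were the others with the smallest p. With p adjusted over all genes of all 9 pairs, 0 members passed, and the smallest value was 0.218 for NPM1 and GAR1. When only the 2 groups were fitted, edgeR called 0 (10 at an unadjusted p under 0.05). Leaving out gallic acid replicate 1, 2 or 3 gave 0, 24 and 0 members (0, 33 and 17 at an unadjusted p under 0.05), and leaving out benzoic acid replicate 1, 2 or 3 gave 1, 0 and 0 (20, 19 and 16).

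In the other 8 pairs edgeR and DESeq2 called 0 members, where 0.0109% of all genes were called for hederagenin against oleanolic acid at 10 µM and 0.00% in the other 7. Hederagenin has a hydroxyl group that oleanolic acid lacks. At 10 µM the members' log2 differences had a median of 0.10 with intervals that reached from -0.59 to 0.98. An unadjusted p under 0.05 was found for 0 members and for 578 of 18324 genes. At 0.4 µM the median was 0.35, and 23 members had an unadjusted p under 0.05, as did 3211 of 18324 genes. Mitochondrially encoded counts made up 3.44, 2.29 and 17.8% of these hederagenin libraries and 16.2, 16.4 and 11.5% of the oleanolic acid libraries. The part of this share in the difference was not tested. For paeoniflorin and albiflorin, which are isomers, 1 member had an unadjusted p under 0.05 at 10 µM, as did 602 of 18324 genes. The members' median there was 0.10 with intervals from -0.55 to 0.999. These intervals leave room for a difference of nearly 2-fold in single members.

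Across dose, 10 against 0.4 µM gave 0 members called by edgeR and by DESeq2 in any of the 8 ingredients, where 2.47% of all genes were called for oleanolic acid, 1.05% for hederagenin, 0.557% for gallic acid and 0.00% for the other 5. An unadjusted p under 0.05 was found for 0 to 5 members and for 108 (albiflorin) to 2782 (gallic acid) of 18324 genes. Between ingredients whose library codes begin with the same digit, at 10 µM, 0 members were called by either tool. In these comparisons 0 to 6 members had an unadjusted p under 0.05, as did 142 (albiflorin against benzoic acid) to 2701 (gallic acid against catechin) of 18324 genes. The members' median was 0.18 for gallic acid against catechin (0.677% of all genes called), -0.07 for hederagenin against paeonol (1.03%), -0.0091 for oleanolic acid against paeoniflorin (2.59%) and -0.0045 for albiflorin against benzoic acid (0.00%). With gallic acid at 10 µM against vehicle, 8.51% of all genes were higher and 4.96% lower. Of the 94 other ribosome biogenesis genes, 20 were higher and 4 lower (median 0.17). Higher were also 5 of 17 snoRNA host genes (median 0.37) and 6 of 35 mitochondrial ribosome genes (median 0.26).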

How the data were processed

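Per the labels' protocols, mRNA libraries were made from total RNA with an MGIEasy directional kit. The authors deposited expected counts per gene. The submitters' processing notes name STAR and RSEM 1.3.3, beside FastQC and Trim Galore, and the build GRCh38 (hg38), without settings or an annotation release. RSEM divides reads that match several genes among those genes. Of the deposited values 89.2% were whole, and 17093 genes had no count.

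The expected counts were rounded. All groups of a batch entered 1 fit, and the batches were fitted separately, in edgeR 4.0.16 (R 4.3.3; TMM, filterByExpr, glmQLFit and glmQLFTest). P-values were adjusted by Benjamini-Hochberg over the 16854 or 18324 genes tested, with a threshold of 0.05. The common biological coefficient of variation was 0.0444 with 14 residual degrees of freedom in the extract batch, and 0.212 with 50 in the ingredient batch. CPM are counts scaled to the TMM-adjusted library size. The fit was also run on simulated counts with 1 fixed spread for all genes. Those counts lack differences between libraries such as those in mitochondrial share, so they do not test the fit for such differences. Positions come from GENCODE v29, whose release may differ from that of the authors.

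The members, lists and alternatives were chosen with earlier results of these data known. Library values are given for the member of each role with the largest change with ethanol extract at 500 µg/mL, and elsewhere up to 3 members per direction with the smallest p are named. Of other lists up to 2 genes per direction are named. FBL, NPM1, NOC3L, POLR1A, BYSL and DDX10, and LTV1 and GNL3 in the ingredient batch, were given library values after these were seen. Alternatives were DESeq2 1.42.0, its size factors, no filter, the replicate number as a block, only the 2 groups compared, libraries left out, and a mitochondrial covariate.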

Additional observations from a re-analysis of the deposited data

Results flagged for a closer look

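In a direct test at the same dose, 38 of the 40 members differed between ethanol and water extract at 500 µg/mL, 37 of them lower (33.3% of all genes) and 1 higher (32.7%) with ethanol extract. Both extracts share the vehicle libraries, but this difference does not use them. It stood at 36 to 38 members under every alternative run, each of its 6 libraries left out in turn included.

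In a second direct test, 9 members differed between gallic and benzoic acid at 10 µM, all higher with gallic acid (5.75% of all genes). The library codes of these ingredients begin with different digits, which cannot be told apart from the ingredient. With p adjusted over all genes of the 9 pairs of related ingredients, 0 members passed, and the smallest value was 0.218. The 2 gallic acid libraries above the benzoic acid ones had 2.40% and 3.25% mitochondrially encoded counts and the gallic acid library near them had 18.9%. Without libraries under 5%, only gallic acid replicate 2 remained at this dose, and the median difference was -0.07.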

How the results depend on the processing

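The count of 38 members lower with ethanol extract at 500 µg/mL was 38 under every alternative run and without any 1 of its 6 libraries. All changes of the first batch that were called kept their direction in every alternative run. NOC3L, not called there, ranged from -0.11 (without vehicle replicate 3) to 0.031 (without vehicle replicate 1) and so changed sign. The labels do not say that replicate numbers pair the libraries, and 3 of 63 same-number pairs of the first batch correlated above 0.1 (mean 0.030; 222 of 900, mean 0.0054, in the second), so no pairing was assumed. As a hint from the data, 16 of 21 libraries of the first batch and 39 of 75 of the second were closest to their own number, and mitochondrial share was higher and the TMM factor lower in replicate 3 than in replicate 1 of all 6 extract groups. With the replicate block, counts of members were 38 (ethanol extract, 500 µg/mL), 23 (100), 12 (20), 23 (water extract, 500), 20 (100) and 13 (20), and 17 for gallic acid at 10 µM, where 70.4, 21.5, 11.1, 24.6, 16.9, 14.2 and 13.7% of all genes were called.

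When only the 2 groups were fitted, 0 members were called for ethanol extract at 20 µg/mL (0.69% of all genes), 5 for water extract at 20 µg/mL (5.19%) and 2 between the extracts at 100 µg/mL (2.56%). Leaving out 1 library gave 14 to 19 members for ethanol extract at 100 µg/mL, 3 to 9 at 20 µg/mL, 9 to 15 for water extract at 100 µg/mL, 5 to 11 at 20 µg/mL, 0 to 0 between the extracts at 100 µg/mL and 0 to 1 between water extract at 500 and 20 µg/mL. No share of all genes stands beside these ranges, so they show only dependence on single libraries.

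The ingredient batch depended on the processing far more, and for its counts the cause was not tested. Percentages in parentheses are the share of all genes called in the same fit. DESeq2 called 19 members for catechin at 2 µM (19.2%), 16 for hederagenin at 0.4 µM (8.94%), 7 for gallic acid at 2 µM (3.54%) and 2 for hederagenin at 10 µM (3.72%), and its size factors gave 3 for hederagenin at 0.4 µM (2.85%). Without the filter on low counts there were 11 for gallic acid at 10 µM (2.54%), 5 for catechin at 0.4 µM (0.474%), 1 for hederagenin at 0.4 µM (0.196%), 1 for gallic against benzoic acid at 10 µM (1.22%), and 0 for catechin at 2 µM, gallic acid at 2 µM and hederagenin at 10 µM. Fitting only the 2 groups gave 26 for catechin at 0.4 µM (37.96%) and 14 at 10 µM (7.45%), 20 for hederagenin at 10 µM (18.1%) and 19 at 2 µM (14.7%), 14, 6 and 10 for oleanolic acid at 10, 2 and 0.4 µM (23.3, 10.9 and 12.7%), 12 for albiflorin (9.05%), 2 for benzoic acid (2.94%) and 1 for paeoniflorin (0.417%) at 10 µM, and 1 for oleanolic acid at 10 against 0.4 µM (7.52%). It gave 0 for gallic acid at 10 and 2 µM, hederagenin at 0.4 µM and gallic against benzoic acid at 10 µM.

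With the mitochondrial covariate, chosen after the data were seen, there were 6 for hederagenin (8.81%) and 3 for oleanolic acid (13.6%) at 10 µM, 1 each for gallic against benzoic acid (5.34%) and hederagenin against paeonol (4.91%) at 10 µM and for hederagenin (4.75%) and oleanolic acid (7.97%) at 10 against 0.4 µM, and 0 for catechin at 2 µM. Without libraries under 5% mitochondrial counts there were 32, 25 and 4 for catechin at 2, 0.4 and 10 µM (39.5, 30.4 and 2.48%), 18 and 15 for gallic acid at 0.4 and 2 µM (13.8 and 5.63%), and 18 and 8 for hederagenin at 10 and 2 µM (12.5 and 3.98%). There were 5, 2 and 1 for oleanolic acid at 10, 2 and 0.4 µM (18.1, 5.51 and 2.92%), 1 and 2 for paeoniflorin at 10 and 0.4 µM (2.91 and 7.16%), and 1 and 1 for paeonol at 10 and 0.4 µM (1.10 and 0.931%). Oleanolic acid at 10 against 0.4 µM then gave 1 (8.98%). Of the groups with counts here, catechin at every dose, gallic acid at 2 µM, paeonol at 10 and 0.4 µM, and hederagenin, oleanolic acid and paeoniflorin at 10 µM each lacked 1 library in that setting. Gallic acid at 10 µM and hederagenin at 0.4 µM kept 1 library each in that setting, so no counts are given for them or for pairs that include them. Some members changed sign in that setting, for gallic acid at 10 µM against vehicle DKC1 (-0.023), NOC2L (-0.12) and PPAN (-0.10), and against benzoic acid GNL3 (-0.067), LTV1 (-0.095), NCL (-0.072), NOP58 (-0.00604), NPM1 (-0.10), PES1 (-0.033) and PPAN (-0.063). Without the 4 libraries over 100 CPM of COL1A2 there were 17 for catechin at 2 µM (23.1%), 12 for hederagenin at 0.4 µM (7.21%) and 0 for gallic acid at 2 µM.

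Leaving out 1 library gave 0 to 29 members for gallic acid at 10 µM, 0 to 24 for gallic against benzoic acid, 0 to 7 for catechin at 0.4 µM, 0 to 1 for hederagenin at 10 µM, 0 to 4 for paeonol at 10 µM, and 0 to 5 each for gallic acid against catechin at 10 µM and for gallic acid at 10 against 0.4 µM. Without 1 vehicle library, hederagenin at 0.4 µM, gallic acid at 2 µM and catechin at 2 µM gave 0 to 0. Leaving out libraries of the other groups at 2 and 0.4 µM was not run. With 3 libraries a group and a larger spread, the second batch limits what can be called.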

Other observations

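Other lists were compared between the extracts. Of the noncoding snoRNA host genes, at 500 µg/mL, 11 of 17 were higher and 4 lower with ethanol than with water extract (median log2 difference 0.46), where 32.7% of all genes were higher and 33.3% lower, whereas 69 of the 94 other ribosome biogenesis genes were lower and 12 higher (median -0.31). Between 500 and 100 µg/mL of ethanol extract, 10 snoRNA host genes were higher (32.7% of all genes) and 3 lower (33.2%) at the higher dose (median 0.42), and 26 of 35 mitochondrial ribosome genes were lower and 3 higher (median -0.30).

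Over the 3 doses of water extract, the group mean was lowest at 500 µg/mL in 25 of 40 members and lower at every step from vehicle upward in 13. Neither count was made over all genes.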
